A study of Caenorhabditis elegans with 12 samples.

Results

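The genes described here encode the *C. elegans* machinery that attaches ubiquitin and related small proteins to other proteins and removes them again. They are the loci of the count table whose symbol holds a name of the families *uba* (activating enzymes, E1), *ubc* (conjugating enzymes, E2), *ubl* (ubiquitin-like proteins), *cul* (cullins), *ubh*, *usp* and *otub* (deubiquitinases) or *ufd* (ubiquitin fusion degradation), together with the ubiquitin ligase genes *siah-1* and *eel-1*. This rule takes 50 of the 41420 loci in the table, which hold 51 of these gene names because *ubh-2* and *ubh-3* share a locus. The rule uses names only. However, *siah-1*, *eel-1*, *ubc-1* and *ubc-3* had been picked by the study as more highly expressed in these same samples, so their differences between strains are not independent evidence.

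Ubiquitin is activated by an E1 enzyme, passed to an E2 enzyme and transferred to a substrate with the help of an E3 ligase, which chooses the substrate. Chains of ubiquitin commonly mark a protein for the proteasome, and other linkages act in DNA repair, endocytosis and signaling. Deubiquitinases cut ubiquitin from substrates and recycle it, and SUMO and NEDD8 are related modifiers that use E1 and E2 enzymes of their own.

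Poly(A) RNA was sequenced from whole worms of the wild type Bristol strain N2 and of strain VC1262, which carries the deletion allele *osm-9(ok1677)*. *osm-9* encodes a TRPV cation channel of the ASH osmosensory neurons and other chemosensory neurons. Synchronized late L4 larvae were kept for 6 h on agar, either at 51 mM NaCl as the control or at 200 mM NaCl as hypertonic stress, and each concentration had 2 samples of N2 and 4 of the mutant, 12 in all. The mutant is a single deletion strain that develops slightly more slowly than N2, and both strains were staged by eye on the vulval crescent. Each sample is RNA from many pooled worms, so a larger share of cells that express a gene and more RNA per cell cannot be told apart.

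Total counts ranged from 15949889 to 21418277 per library. The smallest level that 3 counts can show lay between 0.14 and 0.188 CPM when counts are taken relative to the raw total of a library, and covers counting error only. All other CPM values are counts relative to the TMM-scaled size of a library. The count over the *osm-9* locus was 14 to 36 in N2 and 25 to 50 in *osm-9(ok1677)* libraries. A count over the whole gene does not show a partial deletion, so the strain rests on the labels. All 11 marker groups for tissues, germ line and stage were detected, with no marker at 0. The summed level of 9 molting genes was 172 to 344 CPM in N2, 457 to 1102 CPM in *osm-9(ok1677)* worms at 51 mM NaCl and 262 to 964 CPM at 200 mM NaCl, and 4 of the 9 were called higher in *osm-9(ok1677)* worms at 51 mM NaCl and 1 at 200 mM NaCl. The summed level of 7 sperm genes was 398 to 426 CPM in N2 and 193 to 374 CPM in *osm-9(ok1677)* libraries, and 1 of the 7 was called lower at each concentration. The summed level of 3 epidermal genes was 45.2 to 60.3 CPM in N2 and 74.5 to 205 CPM in *osm-9(ok1677)* worms at 51 mM NaCl, where 1 of the 3, *dpy-7*, was called higher, and 45.1 to 78.9 against 43.0 to 151 CPM at 200 mM NaCl, where none was called. For 4 neuronal genes, none of them called, the sum was 170 to 186 CPM in N2 and 199.5 to 251 CPM in *osm-9(ok1677)* libraries. Their median log2 fold change was however 0.0017 at 51 mM NaCl and -0.09 at 200 mM NaCl, so the higher sum was not shared by all 4. Of 5 germ-line genes *pgl-1* was called lower at 51 mM NaCl. The libraries also differed within a group in oocyte and yolk genes, as described further on. The part of these differences in the results for the ubiquitin genes was not tested.

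Levels of different genes are compared per length, as CPM per kilobase of exon (RPKM) averaged over the 12 libraries. The highest was *ubl-1*, a ubiquitin-like protein fused to ribosomal protein S27a, at 1557 RPKM. It was followed by *ubc-7*, an E2 of the UBE2G type, at 243.5 RPKM, and by *uba-1*, the E1 that activates ubiquitin itself, at 155.7 RPKM. *ubc-18*, which works with RBR ligases, *ufd-2*, a chain-elongating E4 enzyme whose locus is joined with *pdha-1*, and *ubc-20*, whose locus is joined with F40G9.2, lay between 115.2 and 122.6 RPKM. The order among these 3 was not clear, because their ranges over the libraries overlapped (105 to 138 RPKM for *ubc-18*, 112 to 132 RPKM for *ufd-2* and 99.8 to 142 RPKM for *ubc-20*). The highest level in each remaining class was 54.2 RPKM for *cul-3* among cullins, 91.6 RPKM for *eel-1* as an E3, and 61.96 RPKM for *otub-1*, joined with C25D7.10, among OTU-type deubiquitinases. Of the deubiquitinases that act at the proteasome, *usp-14* stood at 100.4 RPKM and *ubh-4* at 91.4 RPKM.

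The lowest levels were found among E2 genes. *ubc-17* averaged 0.737 RPKM, *ubc-22* 1.0 RPKM, *ubc-23* 2.96 RPKM and *ubc-24* 3.63 RPKM, and among cullins *cul-6*, known from the response to intracellular pathogens, stood at 3.03 RPKM. *ubc-21* had 0 to 4 counts per library and did not pass the filter on low counts. The other 49 loci were tested. Their median level was 40.0 RPKM, against 10.6 RPKM for all 15403 loci tested, and 40 of the 49 lay above that median.

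The first comparison asked how the mutant differs from the wild type without hypertonic stress. At 51 mM NaCl, 6 members were higher in *osm-9(ok1677)* than in N2 worms and 1 was lower. The 6 were both E3 genes, *siah-1* and *eel-1*, the E2 genes *ubc-8*, *ubc-1* and *ubc-3*, and the deubiquitinase gene *otub-4*. The lower one was the E2 gene *ubc-24*. A locus was called where the two-sided quasi-likelihood test of edgeR gave a p, adjusted over all 15403 loci, no larger than 0.05. Of all loci tested, 7.64% were called higher and 4.63% lower, or 12.3% in either direction. Of the 49 members, 24 had a log2 fold change above 0 and 25 below 0. Their median log2 fold change was -0.0022, and that of all loci tested was 0.0453. Without adjustment, 11 members and 29.1% of all loci had a p of 0.05 or less. In 12 members each *osm-9(ok1677)* library lay above both N2 libraries, and in 1 each lay below. Over all loci such groups without overlap made up 20.1% and 15.2%, respectively. Member calls were lost with either N2 library at 51 mM NaCl left out. Each such fit keeps 1 N2 library in the group, and calls over all loci fell as well. The loss is therefore not specific to the members. Every called member kept its direction in these fits. Without N2 library 2 the log2 difference was 1.44 for *siah-1*, 0.99 for *ubc-8* and 0.65 for *ubc-1*. It was 0.40 for *otub-4*, 0.21 for *ubc-3* and -1.09 for *ubc-24*.

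**Figure D1:**
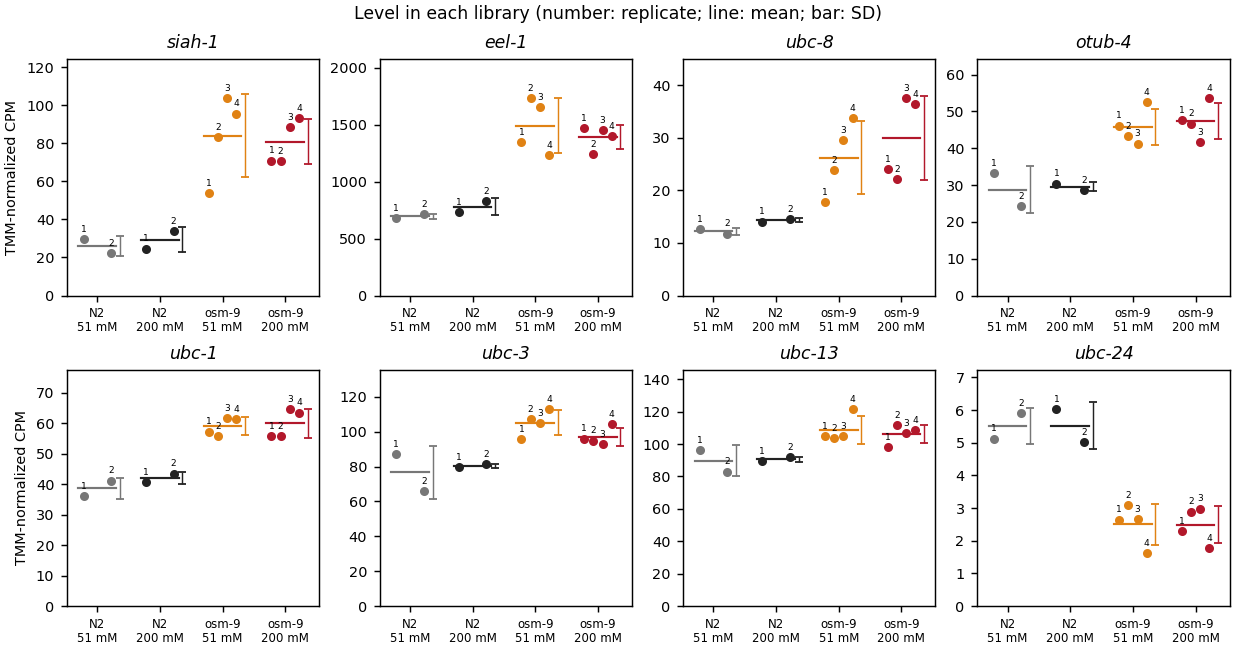
Level of 8 members in each library in TMM-normalized CPM (y axis, starting at 0) for N2 and *osm-9(ok1677)* worms at 51 and 200 mM NaCl (x axis). Each point is 1 library with its replicate number, the line is the group mean and the bar the SD (n = 2 for N2, n = 4 for *osm-9(ok1677)*). In *siah-1*, *eel-1*, *ubc-8*, *otub-4*, *ubc-1*, *ubc-3* and *ubc-13* the *osm-9(ok1677)* points lie above the N2 points of the same NaCl concentration, and in *ubc-24* they lie below.

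*siah-1* encodes a RING-type ligase of the Siah family. In 51 mM NaCl the N2 libraries had 29.8 and 22.1 CPM, and *osm-9(ok1677)* libraries 1 to 4 had 53.6, 83.1, 103.5 and 95.5 CPM. Under hypertonic stress *siah-1* was at 24.7 and 33.8 CPM in N2 and 70.8, 70.7, 88.5 and 93.3 CPM in *osm-9(ok1677)*. Each mutant library was above each N2 library at both concentrations, and library 1 at 51 mM NaCl was the lowest of the mutant libraries. This was a log2 fold change of 1.69 (standard error 0.27, edgeR adjusted p = 0.0031) at 51 mM NaCl and 1.46 (standard error 0.27, adjusted p = 0.0086 by the same edgeR test) at 200 mM NaCl. Without N2 library 2 at 51 mM NaCl the first value was 1.44 (edgeR adjusted p = 0.068), and without N2 library 1 or 2 at 200 mM NaCl the second was 1.25 (adjusted p = 0.113) or 1.65 (adjusted p = 0.053).

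*eel-1* encodes a HECT-type ligase related to mammalian HUWE1 and was the most deeply counted of the genes that differed. Its level was 678 and 712 CPM in N2 and 1346, 1730, 1657 and 1230 CPM in *osm-9(ok1677)* worms at 51 mM NaCl. Under hypertonic stress *eel-1* was at 730.5 and 832 CPM in N2 and 1468, 1241, 1450 and 1403 CPM in *osm-9(ok1677)* worms. The strains did not overlap at either concentration, and the lowest mutant library stood well above the highest N2 library. On the log2 scale *eel-1* was higher by 1.1 (standard error 0.15, edgeR adjusted p = 0.0014) at 51 mM NaCl and 0.83 (standard error 0.15, adjusted p = 0.0087 by the same edgeR test) at 200 mM NaCl. At 51 mM NaCl it was called under all 22 alternative settings, with log2 fold changes from 0.81 to 1.3. The call at 200 mM NaCl was lost without N2 library 1 (adjusted p = 0.106 in edgeR) or 2 (adjusted p = 0.081). *eel-1* alone weighed heavily in the total. All 50 loci together took 0.564% to 0.645% of the counts of an N2 library and 0.692% to 0.737% of an *osm-9(ok1677)* library. With *eel-1* left out the shares were 0.490% to 0.571% and 0.538% to 0.593%, and the strains overlapped.

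*ubc-8* encodes an E2 of the UBE2H type. The N2 libraries had 12.6 and 11.8 CPM at 51 mM NaCl, and the *osm-9(ok1677)* libraries had 17.7, 23.8, 29.6 and 33.8 CPM. In 200 mM NaCl, N2 had 14.05 and 14.5 CPM and *osm-9(ok1677)* 23.98, 22.2, 37.4 and 36.3 CPM. The mutant libraries were all higher, libraries 3 and 4 more so than 1 and 2. Its log2 fold change between strains was 1.1 (standard error 0.29, edgeR adjusted p = 0.031) at 51 mM NaCl and 1.07 (standard error 0.29, adjusted p = 0.049 by edgeR) at 200 mM NaCl. Both calls were close to the threshold. The first call held in 8 of the 12 fits that left out 1 library, and was lost without N2 library 1 (adjusted p = 0.127) or 2 (adjusted p = 0.209) or without *osm-9(ok1677)* library 3 (adjusted p = 0.060) or 4 (adjusted p = 0.058), all from edgeR. The call at 200 mM NaCl held in 4 of the 12. It was lost without either N2 library at 51 or 200 mM NaCl, without *osm-9(ok1677)* library 2 or 3 at 51 mM NaCl and without library 3 or 4 at 200 mM NaCl, with edgeR adjusted p values up to 0.236.

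*ubc-1* encodes the counterpart of yeast RAD6, an E2 of DNA damage tolerance and histone ubiquitination. It stood at 36.2 and 41.1 CPM in N2 and at 57.2, 55.8, 61.7 and 61.4 CPM in *osm-9(ok1677)* at 51 mM NaCl. In worms under hypertonic stress it stood at 40.7 and 43.4 CPM in N2 and at 55.7, 55.7, 64.6 and 63.4 CPM in *osm-9(ok1677)*. The libraries of a group lay close together and the strains were apart at both concentrations. For *ubc-1* the log2 fold change came to 0.61 (standard error 0.12, edgeR adjusted p = 0.0078) at 51 mM NaCl and 0.51 (standard error 0.12, adjusted p = 0.026 by edgeR) at 200 mM NaCl. The first call was lost without N2 library 1 (adjusted p = 0.082) or 2 (adjusted p = 0.056). The second was lost without N2 library 1 (adjusted p = 0.180) or 2 (adjusted p = 0.157) or without *osm-9(ok1677)* library 3 (adjusted p = 0.077) or 4 (adjusted p = 0.072), all from edgeR.

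*ubc-3* encodes the counterpart of yeast CDC34, an E2 that works with cullin ligases. On 51 mM NaCl it had 87.2 and 65.9 CPM in N2 and 95.9, 107.1, 104.9 and 112.9 CPM in *osm-9(ok1677)* worms. Worms on 200 mM NaCl had 79.5 and 81.3 CPM in N2 and 96.0, 94.9, 93.0 and 104.5 CPM in *osm-9(ok1677)* worms. The strains did not overlap at either concentration. The log2 fold change was 0.46 (standard error 0.12, edgeR adjusted p = 0.036) at 51 mM NaCl, where N2 library 2 was the lowest, and 0.27 (standard error 0.12, adjusted p = 0.206 by edgeR, not called) at 200 mM NaCl. The call at 51 mM NaCl held in 4 of the 12 fits that left out 1 library. Without N2 library 2 the log2 fold change was 0.21 (adjusted p = 0.410 in edgeR), and without any other library it stayed between 0.39 and 0.67. The call was also lost without N2 library 2 at 200 mM NaCl, *osm-9(ok1677)* library 2, 3 or 4 at 51 mM NaCl or library 1, 2 or 3 at 200 mM NaCl, with edgeR adjusted p values from 0.051 to 0.077.

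*otub-4* encodes a member of the OTU family of cysteine proteases. With 51 mM NaCl its level was 33.2 and 24.3 CPM in N2 and 46.2, 43.4, 41.2 and 52.6 CPM in *osm-9(ok1677)*. With 200 mM NaCl its level was 30.4 and 28.7 CPM in N2 and 47.5, 46.7, 41.6 and 53.5 CPM in *osm-9(ok1677)*. The mutant libraries lay above N2 throughout, with library 4 the highest and library 3 the lowest at both concentrations. The log2 fold change was 0.67 (standard error 0.16, edgeR adjusted p = 0.022) and 0.68 (standard error 0.16, adjusted p = 0.030 by edgeR) at 51 and 200 mM NaCl. The first was 0.40 (adjusted p = 0.259 in edgeR) without N2 library 2. The second call was lost without N2 library 1 (adjusted p = 0.144) or 2 (adjusted p = 0.226) or without *osm-9(ok1677)* library 1 (adjusted p = 0.056), 2 (adjusted p = 0.050) or 4 (adjusted p = 0.078), all from edgeR. The exons of *otub-4* overlap those of *vha-19*, a vacuolar ATPase subunit gene on the opposite strand, which was counted far more deeply. *vha-19* stood at 437 ± 55.4 CPM (SD, n = 2) in N2 and at 613 ± 40.2 CPM (SD, n = 4) in *osm-9(ok1677)* worms at 51 mM NaCl, a log2 fold change of 0.49 (standard error 0.13, edgeR adjusted p = 0.032). At 200 mM NaCl *vha-19* stood at 459 ± 78.9 CPM (SD, n = 2) in N2 and 687 ± 37.7 CPM (SD, n = 4) in *osm-9(ok1677)* worms. Its log2 fold change there was 0.58 (standard error 0.13, edgeR adjusted p = 0.022). No source used here says if reads were counted by strand, so reads of these overlapping genes cannot be told apart.

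*ubc-24*, an E2 gene, was the member that was lower in the mutant. It had 5.1 and 5.9 CPM in N2 and 2.6, 3.1, 2.7 and 1.6 CPM in *osm-9(ok1677)* at 51 mM NaCl. On 200 mM NaCl *ubc-24* had 6.0 and 5.0 CPM in N2 and 2.3, 2.9, 3.0 and 1.8 CPM in *osm-9(ok1677)*. These levels rest on 31 to 118 counts per library, and no mutant library reached an N2 library. The log2 fold change was -1.14 (standard error 0.28, edgeR adjusted p = 0.024) at 51 mM NaCl and -1.15 (standard error 0.28, adjusted p = 0.033 by edgeR) at 200 mM NaCl. The first call was lost without N2 library 1 (adjusted p = 0.078) or 2 (adjusted p = 0.146). The second was lost without N2 library 1 (adjusted p = 0.201) or 2 (adjusted p = 0.104) or without *osm-9(ok1677)* library 1 (adjusted p = 0.069) or 4 (adjusted p = 0.082), all from edgeR.

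The same contrast under hypertonic stress gave 5 higher members and 1 lower one at 200 mM NaCl. These were *siah-1*, *eel-1*, *ubc-8*, *ubc-1* and *otub-4* and, in the other direction, *ubc-24*. All 6 had been called in the same direction at 51 mM NaCl. Of all loci tested, 4.13% were called higher and 2.30% lower, or 6.43% in either direction. The median log2 fold change was 0.0032 over the members and 0.0533 over all loci tested. The comparisons at the 2 concentrations use different libraries but are not independent, since same-numbered libraries deviated together across NaCl concentrations (r from 0.62 to 0.87 across loci in *osm-9(ok1677)*, and 0.60 in N2). Without adjustment 7 members had a p of 0.05 or less, against 23.9% of all loci. Groups did not overlap in 11 members that were higher and 4 that were lower, against 17.5% and 16.8% of all loci. Here too member calls were lost with either N2 library at 200 mM NaCl left out, where 1 N2 library stays in the group. Calls over all loci fell as well, and every called member kept its direction. Without *osm-9(ok1677)* library 4 at 200 mM NaCl 2 members were called, *eel-1* and *siah-1*. Over all loci that fit lowered the calls from 636 higher and 354 lower to 389 and 159.

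**Figure D2:**
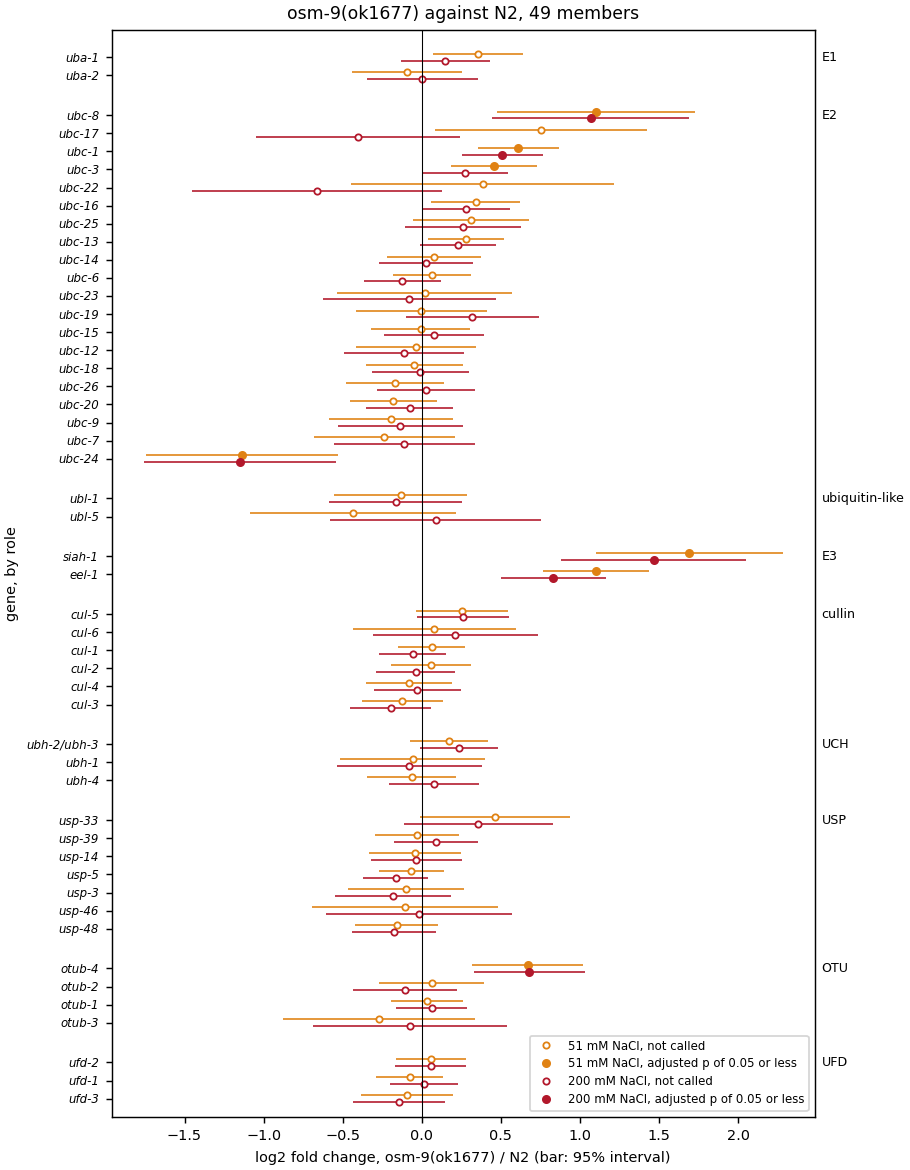
Log2 fold change of *osm-9(ok1677)* against N2 (x axis) for the 49 members tested, grouped by role (y axis), at 51 mM NaCl (orange) and 200 mM NaCl (red). Bars are 95% intervals from the edgeR fit and filled points have an adjusted p of 0.05 or less. Filled points stand at 1.69 and 1.46 for *siah-1* and at -1.14 and -1.15 for *ubc-24*, and most members lie close to 0.

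Most members were not called between the strains. Neither E1 gene was called. *uba-1* had 495.5 and 461 CPM in N2 and 662, 584, 553 and 650.1 CPM in *osm-9(ok1677)* at 51 mM NaCl, without overlap, which gave a log2 fold change of 0.36 (standard error 0.13, edgeR adjusted p = 0.097). At 200 mM NaCl the strains overlapped and the value was 0.15 (standard error 0.13, adjusted p = 0.542 by edgeR). *uba-2*, a subunit of the SUMO E1, had log2 fold changes of -0.09 and 0.0032.

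None of the 6 cullin genes, which scaffold the largest group of multisubunit ligases, was called at either concentration. *cul-1* builds SCF ligases, *cul-2* works with elongins, *cul-3* with BTB adaptors and *cul-4* with DDB1, and their log2 fold changes lay between -0.12 and 0.06 at 51 mM NaCl and between -0.20 and -0.03 at 200 mM NaCl. The furthest from 0 was *cul-5*, at 62.2 and 55.4 CPM in N2 and 74.9, 64.4, 63.2 and 77.8 CPM in *osm-9(ok1677)* at 51 mM NaCl. Its groups did not overlap there, and its log2 fold change was 0.25 (95% interval -0.04 to 0.55, edgeR adjusted p = 0.229). *cul-6*, counted 105 to 199 times per library, had values of 0.08 and 0.21 with intervals that reached 0.59 and 0.73.

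Among the remaining E2 genes several had *osm-9(ok1677)* libraries above N2 without being called. *ubc-13*, the UBE2N counterpart that builds K63-linked chains, had 96.4 and 83.0 CPM in N2 and 105, 104, 105 and 122 CPM in *osm-9(ok1677)* at 51 mM NaCl. Its log2 fold change was 0.28 (edgeR adjusted p = 0.119) at 51 mM NaCl and 0.23 (adjusted p = 0.232) at 200 mM NaCl, with no overlap at either. *ubc-16* behaved alike, with 0.34 (adjusted p = 0.104) and 0.28 (adjusted p = 0.211) from edgeR. *ubc-9*, the SUMO E2, whose locus is joined with F29B9.5, and *ubc-12*, the NEDD8 E2, whose exons overlap *mag-1* on the opposite strand, were not called. Their log2 fold changes were -0.20 and -0.14 for *ubc-9* and -0.04 and -0.11 for *ubc-12*. The E2 gene with the highest RPKM among the members, *ubc-7*, had -0.24 and -0.11, and *ubc-20* had -0.18 and -0.08.

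Of the 14 deubiquitinase loci tested, *otub-4* was the only one called at either concentration. The 3 loci of the UCH family, *ubh-1*, *ubh-4* and the joined *ubh-2* and *ubh-3*, had log2 fold changes between -0.06 and 0.17 at 51 mM NaCl, and the highest of the 3 at 200 mM NaCl was the joined locus at 0.24 (95% interval -0.01 to 0.48). The 7 *usp* genes had a median of -0.07 at 51 mM NaCl and -0.03 at 200 mM NaCl. They include *usp-14* of the proteasome, *usp-5*, which takes apart free chains, *usp-46*, known from the trafficking of the glutamate receptor GLR-1, and *usp-39* of the spliceosome. *usp-33* stood apart, at 11.2 and 10.5 CPM in N2 and 18.6, 11.03, 13.3 and 16.9 CPM in *osm-9(ok1677)* at 51 mM NaCl. Mutant library 2 lay within the range of N2, and the difference on the log2 scale was 0.46 (standard error 0.22, edgeR adjusted p = 0.180). It was called only with *osm-9(ok1677)* libraries 2 and 3 left out (adjusted p = 0.035). *otub-3* had -0.27 and -0.08, with 95% intervals from -0.88 to 0.34 and from -0.69 to 0.54.

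The 3 *ufd* loci were close to 0 in both comparisons. *ufd-1*, a cofactor that brings ubiquitinated substrates to the CDC-48 unfoldase and is joined here with F19B6.1, had log2 fold changes of -0.08 and 0.01. *ufd-2* had 0.06 and 0.06, and *ufd-3*, the counterpart of yeast Doa1, joined with *flad-1*, had -0.09 and -0.14. The 95% intervals of all 3 lay within 0.5 of 0. Of all members, 25 had intervals within 0.5 of 0 on the log2 scale at 51 mM NaCl and 25 at 200 mM NaCl, against 16.8% and 19.1% of all loci tested. For these the data leave room for a difference of less than that size in either direction. Most members also lay above the median RPKM of all loci tested and varied less within groups. The part of this in their narrower intervals, here and in the comparisons below, was not tested. The 2 ubiquitin-like genes were not called. *ubl-1* had -0.13 and -0.17, and *ubl-5*, known from the mitochondrial unfolded protein response, had -0.44 (95% interval -1.09 to 0.21) and 0.09 (95% interval -0.58 to 0.75).

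The 5 members that were higher at both concentrations lie close together on chromosome IV. In WBcel235 coordinates, *osm-9* starts at 3551090. *ubc-8* starts at 2704741, 0.846 Mb from it, *eel-1* at 3032713, *otub-4* at 3373387, 0.178 Mb away, *siah-1* at 3744048, 0.193 Mb away, and *ubc-1* at 4103020, 0.552 Mb away. *ubc-13* at 2922591 and *ubc-9* at 4651044 are the other members within 2 Mb of *osm-9*. So 5 of the 7 members in this window were called higher at both concentrations, while of the 42 tested elsewhere *ubc-3* on chromosome I was called higher at 51 mM NaCl and none at 200 mM NaCl. However, *siah-1* and *eel-1* are in the rule by name. The study had picked both, and *ubc-1*, as more highly expressed in these same samples. The count of 5 of 7 is therefore not independent evidence about the members or the window. The 4 other members on chromosome IV, *otub-3*, *uba-1*, *ufd-1* and *cul-6*, start at least 5.18 Mb from *osm-9* and were not called. *ubc-24* is on chromosome II.

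The window was chosen after these values were seen and no test was made of it. Among all loci tested within 2 Mb of *osm-9*, 20.5% of 580 were called higher and 16 loci lower at 51 mM NaCl, and 14% and 8 loci at 200 mM NaCl. On the remainder of chromosome IV 5.90% and 3.67% of 2017 loci were called higher, and on the other chromosomes 7.32% and 3.78% of 12663. The median log2 fold change in the window was 0.31 at 51 mM NaCl and 0.27 at 200 mM NaCl. On the remainder of chromosome IV it was -0.02 and 0.01. The allele *ok1677* lies in this window in every *osm-9(ok1677)* library, so the loss of the channel and other differences of the strain at nearby positions cannot be told apart in these samples.

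**Figure D3:**
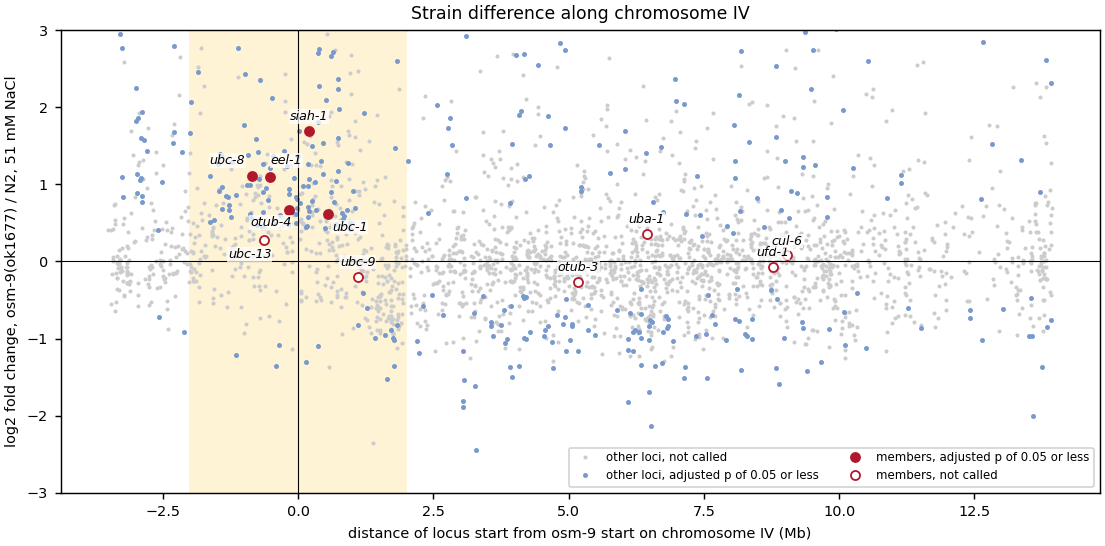
Log2 fold change of *osm-9(ok1677)* against N2 at 51 mM NaCl (y axis) for loci tested on chromosome IV by the distance of their start from that of *osm-9* (x axis, Mb). Red points are members, filled where the adjusted p is 0.05 or less, and the shaded band is the window of 2 Mb on either side. Of 2597 loci, 36 lie outside the range of 3 shown on the y axis. The 5 filled red points lie within 0.85 Mb of *osm-9*.

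The next comparisons asked whether 6 h of hypertonic stress changes these genes. No member was called between 200 and 51 mM NaCl in N2. In edgeR 0 of the 49 members reached 0.05 without adjustment either, and DESeq2 called 0. Of all loci tested 0.195% were called (0.0844% higher and 0.110% lower), and 4.96% reached 0.05 without adjustment. The log2 fold changes ran from -0.58 for *ubl-5* to 0.70 for *ubc-22*, with a median of 0.0332. *ubl-5* had 47.6 and 28.4 CPM at 51 mM NaCl and 30.1 and 20.8 CPM at 200 mM NaCl, and its 95% interval ran from -1.35 to 0.19. *ubc-22* had 8 to 25 counts in any library. In 9 members both libraries at 200 mM NaCl lay above both at 51 mM NaCl, and in 1 both lay below. Over all loci the shares were 13.8% and 13.1%.

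No member was called in *osm-9(ok1677)* worms either. With 4 samples a group, 1 member reached 0.05 in edgeR without adjustment, and DESeq2 called 0. Of all loci tested 0.351% were called (0.221% higher and 0.130% lower), and 5.57% reached 0.05 without adjustment. These and the following values come from a fit without a block for the paired libraries described further on. With the replicate number as a block, 0 members were called. Over all loci the block raised the calls from 34 higher and 20 lower to 158 and 224. Loci at 0.05 without adjustment rose from 858 to 1814. Groups without overlap were found in 0 members, against 2.08% of all loci that were higher and 1.89% that were lower at 200 mM NaCl. The member was *ubc-17*, a rarely counted E2 gene. It had 2.3, 2.7, 2.6 and 1.8 CPM at 51 mM NaCl and 1.2, 1.7, 2.0 and 1.3 CPM at 200 mM NaCl. The groups overlapped, and the log2 value of the change was -0.59 (standard error 0.24, edgeR adjusted p = 0.744). For 40 of the 49 members the 95% interval lay within 0.5 of 0 on the log2 scale, against 36.9% of all loci tested. In N2, with 2 samples a group, this was so for 27 members, against 17.7%.

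The genes that differed between strains were not called between NaCl concentrations within either strain. The log2 fold change of *siah-1* from 51 to 200 mM NaCl was 0.17 in N2 and -0.05 in *osm-9(ok1677)*, that of *eel-1* was 0.17 and -0.10, and that of *ubc-24* was 0.00 and -0.01. *cul-6* had -0.27 and -0.13, *otub-2* 0.25 and 0.08, *ubh-4* -0.19 and -0.05, and *usp-5* 0.11 and 0.0056.

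**Figure D4:**
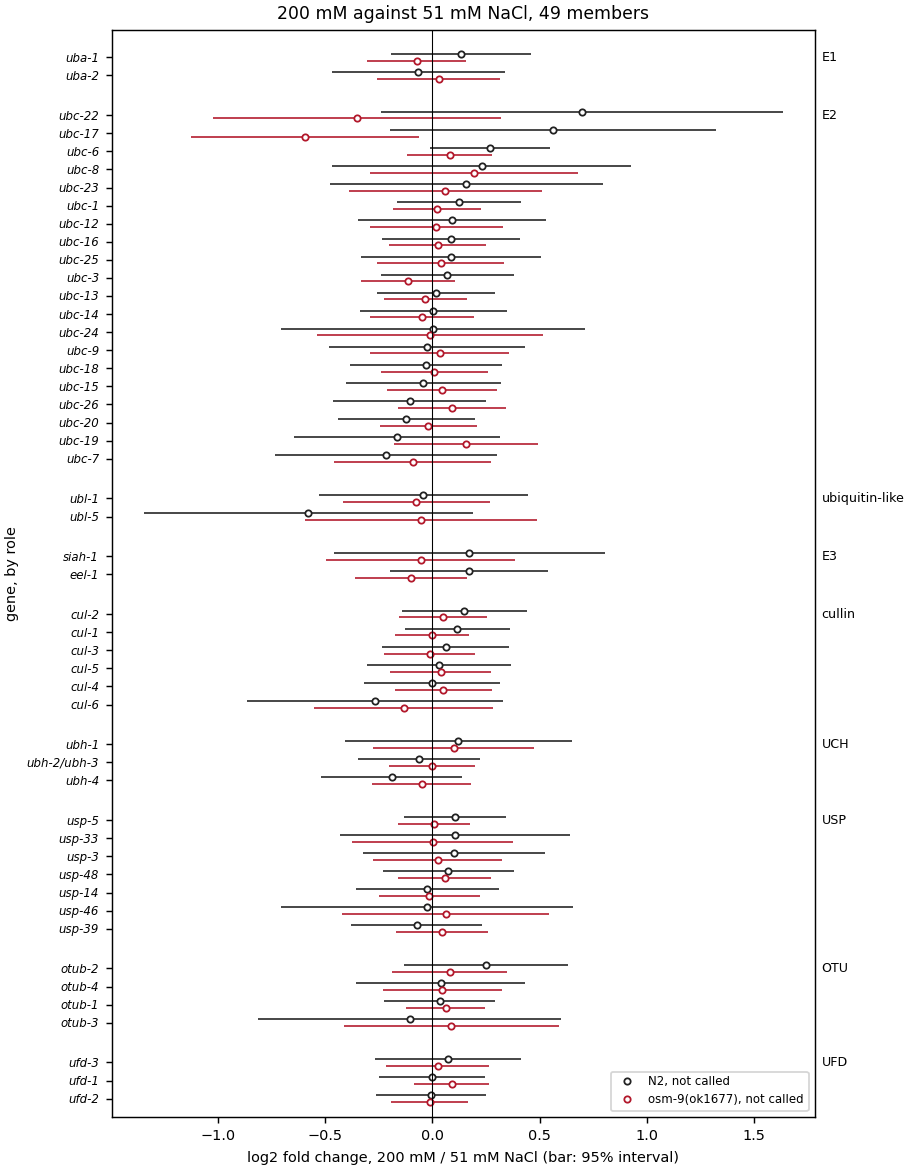
Log2 fold change from 51 to 200 mM NaCl (x axis) of the 49 members tested, grouped by role (y axis), in N2 (black) and *osm-9(ok1677)* (red). Bars are 95% intervals from the edgeR fit, and open points mark values that were not called. No point is filled, and the values run from -0.58 to 0.70 in N2 and from -0.59 to 0.19 in *osm-9(ok1677)*.

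The difference between the strains in the response to NaCl was tested as an interaction. No member was called, 1 of 49 reached 0.05 in edgeR without adjustment, and DESeq2 called 0. Of all loci tested 0.00649% were called and 1.80% reached 0.05 without adjustment. The member was again *ubc-17*. In N2 it had 1.1 and 1.6 CPM at 51 mM NaCl and 1.7 and 2.4 CPM at 200 mM NaCl, a log2 fold change of 0.56. The interaction was -1.16 (95% interval -2.08 to -0.23, edgeR adjusted p = 0.9999). It rests on 23 to 55 counts per library. For 21 of the 49 members the interval of the interaction lay within 0.5 of 0 on the log2 scale, against 10.9% of all loci tested.

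Some members varied more between libraries of a group than between groups. The median coefficient of variation of the tested members was 9.42% to 10.7% in the 4 groups, below the 15.3% to 21.1% of all loci tested, and the highest values were 33.3% to 35.7%. In 8 members, *otub-3*, *otub-4*, *uba-1*, *ubc-25*, *ubc-7*, *ubl-5*, *usp-33* and *usp-46*, *osm-9(ok1677)* libraries 2 and 3 lay below libraries 1 and 4 at both concentrations. This order of the mutant libraries was found in 16.3% of the members and 17.7% of all loci. In the same 8, N2 library 2 lay below N2 library 1 at both concentrations. Both orders together were found in 16.3% of the members, against 13% of all loci. The opposite order of the mutant libraries was found in 3 members, *ubc-17*, *ubc-24* and *ubl-1*, or 6.12%, against 18.9% of all loci. With N2 in the opposite order too, it was 1 member, *ubc-17*, or 2.04%, against 12.2% of all loci.

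*otub-3* had 104 and 67.3 CPM in N2 at 51 mM NaCl and 91.6, 57.5, 51.8 and 83.8 CPM in *osm-9(ok1677)*. *usp-46*, whose exons overlap *sqv-3* on the opposite strand, had 43.6 and 30.6 CPM in N2 and 42.2, 26.9, 25.7 and 43.2 CPM in *osm-9(ok1677)*. In both genes N2 library 1 was nearer to mutant libraries 1 and 4, and N2 library 2 was nearer to mutant libraries 2 and 3. At 200 mM NaCl mutant library 2 lay nearer to libraries 1 and 4, at 79.0 CPM for *otub-3* against 81.9, 58.0 and 84.0 CPM in libraries 1, 3 and 4.

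Oocyte and yolk genes differed between the same libraries. The summed level of 6 oocyte markers was 1956 and 1063 CPM in N2 at 51 mM NaCl and 1973, 1421, 718 and 2086 CPM in *osm-9(ok1677)*. At 200 mM NaCl it was 2363 and 1207 CPM in N2 and 2127, 1839, 779 and 2085 CPM in *osm-9(ok1677)*. The summed level of 6 yolk genes was 36824 to 44795 CPM in N2, and in *osm-9(ok1677)* worms it was 28761, 14558, 9280 and 33497 CPM at 51 mM NaCl. Of the molting genes, the summed level was 512, 1034, 1102 and 457 CPM in *osm-9(ok1677)* worms at 51 mM NaCl, so that libraries 2 and 3 were the higher ones. None of the 6 oocyte or 6 yolk genes was called between the strains at either concentration. The part of these libraries' differences in the results for the ubiquitin genes was not tested. With *osm-9(ok1677)* libraries 2 and 3 left out, *siah-1*, *eel-1*, *otub-4* and *ubc-24* were still called at both concentrations, and with libraries 1 and 4 left out, *siah-1* and *eel-1* were.

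**Figure D5:**
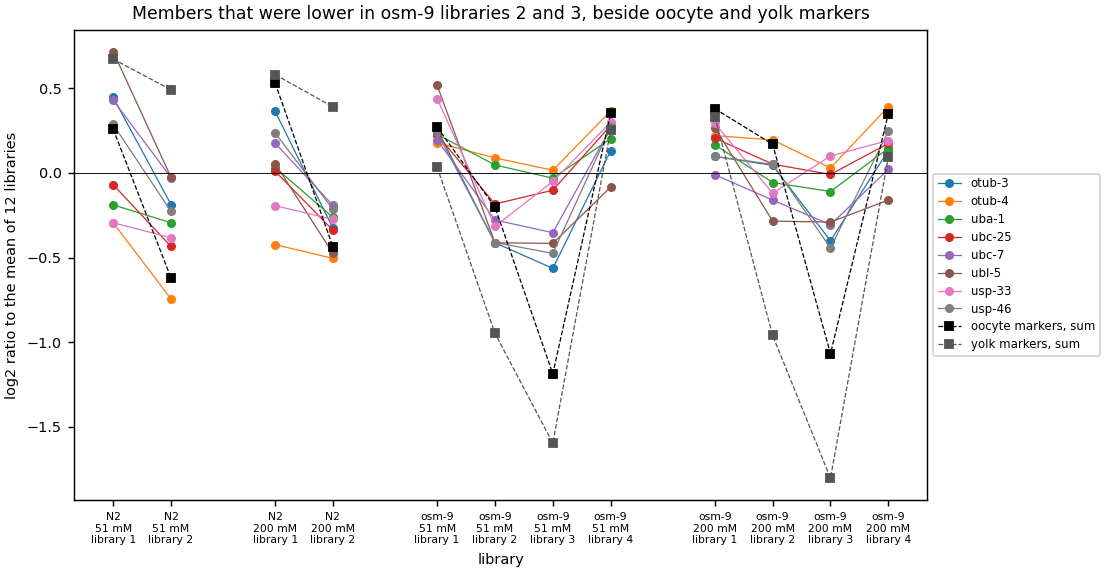
Log2 ratio of each library to the mean of all 12 libraries (y axis) for the 8 members that were lower in *osm-9(ok1677)* libraries 2 and 3 than in 1 and 4 at both concentrations, with the summed oocyte and yolk markers (squares, dashed), by library (x axis). Lines join the libraries of a group. The 8 members and both marker sums are lower in library 2 than in library 1 of N2, and lower in mutant libraries 2 and 3 than in 1 and 4.

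The wider ubiquitin pathway was examined with 109 further genes, chosen by role, of which 105 were tested. At 51 mM NaCl 4 were higher and 2 lower in *osm-9(ok1677)* worms, with a median log2 fold change of 0.0029, against the 7.64% and 4.63% of all loci given above. At 200 mM NaCl 1 was higher and 1 lower, against 4.13% and 2.30% of all loci. The lowest adjusted p belonged to *cand-1*, which exchanges the substrate adaptors of cullin ligases. Its level was 224 ± 0.877 CPM (SD, n = 2) in N2 and 132 ± 8.03 CPM (SD, n = 4) in *osm-9(ok1677)* worms at 51 mM NaCl, and 230.0 ± 11.99 CPM (SD, n = 2) and 129 ± 5.77 CPM (SD, n = 4) at 200 mM NaCl. *cand-1* thus had log2 fold changes of -0.76 (standard error 0.09, edgeR adjusted p = 0.00076) and -0.83 (standard error 0.09, adjusted p = 0.00046 by edgeR). *gei-17*, a SUMO ligase, was higher at both concentrations, at 0.42 (edgeR adjusted p = 0.021) and 0.43 (adjusted p = 0.027).

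At 51 mM NaCl alone, *gfi-3*, a subunit of the anaphase-promoting complex, had a log2 fold change of 0.87 (edgeR adjusted p = 0.048), *sli-1*, the Cbl ligase, 0.65 (adjusted p = 0.021) and the SUMO protease gene *ulp-4* 0.38 (adjusted p = 0.048). The SUMO protease gene *ulp-5* had -0.65 (adjusted p = 0.044 in edgeR). Whether these differed between the concentrations was tested with the interaction, in which none of the 105 was called and 0 had an unadjusted p of 0.05 or less in edgeR. None of the 105 was called between NaCl concentrations in either strain, where 1 had an unadjusted p of 0.05 or less in N2 and 1 in *osm-9(ok1677)*. The COP9 signalosome with 7 subunits, the 11 genes of CDC-48 and its cofactors and the 9 HECT and N-recognin ligases had no called gene in any comparison.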

How the data were processed

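The authors aligned paired reads (76 cycles, TruSeq poly(A) libraries, RNA integrity number of at least 8.0) with TopHat 1.4.1 to WS235 and assigned them to Ensembl release 71 genes with Cufflinks 2.0.1. They deposited read counts for 41420 loci in 12 samples, not normalized. A locus can join genes, as in 7 of the 50 members, and 8 overlap a coding exon of a gene on the opposite strand; their counts cannot be divided. All columns were used.

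Counts were filtered (filterByExpr, minimum count 10, total 15), scaled with TMM and fitted with edgeR 4.0.16 (quasi-likelihood, 12 samples, 1 mean per group) in R 4.3.3, with Benjamini-Hochberg adjustment over 15403 loci. Positions and exon lengths come from Ensembl release 115 (WBcel235), and 15260 tested loci had a position. The standard error is the log2 fold change divided by the root of the F statistic. On simulated counts at 51 mM NaCl, 37 of 100 loci with a log2 change of 1 and 93 of 100 with a change of 2 were recovered, with 7 false calls, so smaller differences can be missed. The simulation changed 200 tested loci, while 1890 were called in the data at 51 mM NaCl. The 200 were drawn from loci above a minimum mean CPM. Rarely counted members such as *ubc-17*, *ubc-22*, *ubc-23* and *ubc-24* are therefore not covered. Members also varied less within groups than all loci, so these shares need not hold for the members.

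Named were *siah-1*, *eel-1*, *ubc-1* and *ubc-3*, all members called, in each class the member with the highest RPKM and those with the largest change, joined or untested members, and the called pathway genes with the largest changes. Members, lists and rule were chosen with earlier results of these data known. The study reports 2 to 4 independent experiments for each condition. Replicate numbers are shared between groups. For 200 against 51 mM NaCl in *osm-9(ok1677)*, same-numbered libraries deviated together from the group means (r = 0.77, 0.62, 0.87 and 0.69 across 13418 loci), which pairs these samples. A block on the replicate number changed no member call there but raised the calls over all loci. Unless stated, edgeR values in the Results come from the fit without the block. Alternatives were DESeq2 1.42.0, other scaling and filters, edgeR's exact test, 2 groups alone, a replicate block and leaving out libraries.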

Additional observations from a re-analysis of the deposited data

Results flagged for a closer look

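In 3 of the 98 groups of 4 *osm-9(ok1677)* libraries examined, 49 members at 2 NaCl concentrations, 1 library stood far from the other 3 by Dixon's test, which chance does in about 5% of groups. *ubc-13* at 51 mM NaCl was 122 CPM in library 4 and 104 to 105 CPM in the others. *cul-4* at 200 mM NaCl was 68.4 CPM in library 3 and 78.2 to 80.0 CPM in the others. *usp-3*, a ubiquitin-specific protease gene, was 13.9 CPM in library 3 at 200 mM NaCl and 18.5 to 19.2 CPM in the others. None of these 3 genes was called in any comparison.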

How the results depend on the processing

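No member reversed its direction where it was called in either fit. For *osm-9(ok1677)* against N2 at 51 mM NaCl, 7 members were called, and 4 with edgeR's exact test and 2 with a fit to the 2 groups alone (*eel-1* and *siah-1*). Leaving out 1 library gave 1 to 7. At 200 mM NaCl 6 were called, and 3 with no filter on low counts, 3 with the 2 groups alone and 2 without *osm-9(ok1677)* libraries 1 and 4. Leaving out 1 library gave 0 to 6. With 1 N2 library left in a compared group, it is assumed to vary like the other groups, and calls over all loci fell as well. DESeq2 called the same 7 and 6 members. The 3 comparisons of NaCl response gave 0 in every fit run. The exact test and the fit to 2 groups do not apply to the interaction.

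With the replicate number as a block, 9 members were called at 51 mM NaCl, all 7 above with *uba-1* (log2 fold change 0.37, edgeR adjusted p = 0.0235) and *ubc-17* (0.77, edgeR adjusted p = 0.0437), and 6 at 200 mM NaCl. Over all 15403 loci the block raised the calls from 1177 higher and 713 lower to 2350 and 1704 at 51 mM NaCl. At 200 mM NaCl it raised them from 636 and 354 to 1494 and 1444. The strain comparisons share only numbers 1 and 2, whose libraries correlated at 0.40 and 0.39 at 51 mM NaCl and at 0.55 and 0.22 at 200 mM NaCl, so there the numbers do not establish a pairing. Across NaCl in N2 the libraries also deviated together, at 0.60. With 2 libraries a group, both numbers give the same value, so a pairing in N2 rests on 1 value. Over all loci the block raised the N2 calls from 13 higher and 17 lower to 108 and 114. The block gave 0 called members in the NaCl comparisons.

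With 2 N2 and 4 *osm-9(ok1677)* libraries at 51 mM NaCl, a log2 difference of 1 was recovered for 37 of 100 simulated loci, so differences of this size can be missed. The share need not hold for the members. They varied less within groups than all loci, and fewer loci were changed in the simulation than were called in the data. Rarely counted loci were not among those changed.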
